A study of Mus musculus with 12 samples.

Results

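The 9 genes described here encode the insulin-like growth factor (IGF) system of the mouse pituitary: the ligands Igf1 and Igf2, the receptor Igf1r, and the binding proteins Igfbp2, Igfbp3, Igfbp4, Igfbp5, Igfbp6 and Igfbp7. They were taken by name, from a list of members, after the gene identifiers of the count files had been matched to mouse symbols. All 9 were found among the 55421 identifiers of each file, and all 9 passed the filter on low counts that left 22630 genes for testing. The 12 libraries fall into 4 groups of 3, all from the pituitary of C57BL/6 mice that carry a floxed Gpr101 gene. The cre_AA14 group had the genotype Cga-creAAVGpr101fl/fl and received AA14, which the submitters describe as a ligand, and the cre_vehicle group had the same genotype and received control vehicle. The ctrl_AA14 and ctrl_vehicle groups had the genotype Cga-ctrlAAVGpr101fl/fl and received AA14 and control vehicle. All treatments lasted 1 week. The genotype names put Cga and an adeno-associated virus (AAV) together with cre or ctrl. Cga, which encodes the common alpha subunit of the glycoprotein hormones, is active in gonadotrophs and thyrotrophs, so a recombinase driven from it would act in a minority of pituitary cells. RNA came from pituitary cells after dispersion, and the sources used here do not give age, sex or whether a library is 1 mouse or a pool. The p-values below therefore measure the spread between libraries, which may in part be technical.

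IGF1 and IGF2 are secreted peptides that signal through the receptor tyrosine kinase IGF1R. High-affinity binding proteins, IGFBP1 to IGFBP6, carry the ligands, lengthen their life and either hold them back from the receptor or deliver them to it, and proteases such as PAPP-A release the ligand again. In the pituitary the system closes the growth hormone axis: growth hormone raises IGF1 in liver and other tissues, and IGF1 acts back on somatotrophs and the hypothalamus to lower growth hormone secretion.

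Total counts ran from 48693682 to 73388221 per library, and the 9 genes together held 0.0570% to 0.154% of them, with 303 to 59010 counts per gene and library. Values below are in CPM, counts scaled to a common library size by the trimmed mean of M values (TMM). The spread between libraries of a group was wide, with a common biological coefficient of variation of 0.445. Libraries stood apart in 2 ways that touch the results. The nuclear long noncoding RNA Malat1 exceeded 1000 CPM in 5 libraries (1105 to 1560 CPM), against 199 to 549 CPM in the other 7. These 5 are all 3 ctrl_AA14 libraries, 1 cre_AA14 library and 1 cre_vehicle library, so that in control-virus mice AA14 and the Malat1 level cannot be told apart. In addition, 3 libraries (cre_vehicle 2, ctrl_AA14 1 and ctrl_vehicle 3) had summed oligodendrocyte markers of 3233, 721 and 2287 CPM, against 54.9 to 441 CPM in the rest. Pituitary identity was clear in all libraries, where 7 hormone genes took 17.6% to 30.8% of counts. Gpr101, the gene meant to be deleted, was low throughout, at 0.901 to 4.29 CPM in the 6 cre libraries and 1.22 to 16.1 CPM in the 6 ctrl libraries, and the ranges overlapped.

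Per kilobase of exon (RPKM, the CPM divided by exon length), the median level of each binding protein stood above those of the receptor and both ligands when lengths took in all exon sequence. On that length Igfbp5 had the highest level of the 9 in 12 of 12 libraries, with a median of 123 RPKM and a range of 57.7 to 151 RPKM. Igf1 had the lowest in 12 of 12, with a median of 0.733 RPKM and a range of 0.577 to 1.09 RPKM. Igfbp7 came next to Igfbp5 with a median of 50.2 RPKM, and within each of the 12 libraries it lay below Igfbp5, although their ranges over all libraries met. A gap without overlap separated Igfbp7 (46.4 to 68.2 RPKM) from Igfbp4 (4.29 to 23.9 RPKM). From Igfbp4 down to Igf2 the neighbours in the order were not separated. Igfbp6 had a median of 15.5 RPKM, Igfbp3 12.4 RPKM, Igfbp2 8.24 RPKM, Igf1r 5.23 RPKM and Igf2 4.15 RPKM, and each of these ranges overlapped the next, whereas Igf2 lay above Igf1 in 12 of 12 libraries without overlap. Igfbp4 was above Igfbp6 in only 4 of 12 libraries in spite of its higher median. The level of Igf2 depends on how shared exon sequence is treated. Of its 5723 exonic bases, 3694 (64.5%) are also exon of another gene, mainly 3596 bases of Gm49394 on the same strand, which had 0 counts in every library. If reads in shared sequence went to neither gene, the length that could be counted is 2029 bases and the median becomes 11.7 RPKM, above those of Igfbp2 and Igf1r. In ctrl_vehicle 3 Igf2 would then stand at 154 RPKM, above Igfbp5 at 129.8 RPKM. The sources used here do not say how reads in shared sequence were counted. Had such reads counted for both genes, Gm49394 would hold counts, and it had 0 in every library. The place of Igf2 on the length of all exon sequence thus holds only if these reads went to Igf2 alone.

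**Figure D1:**
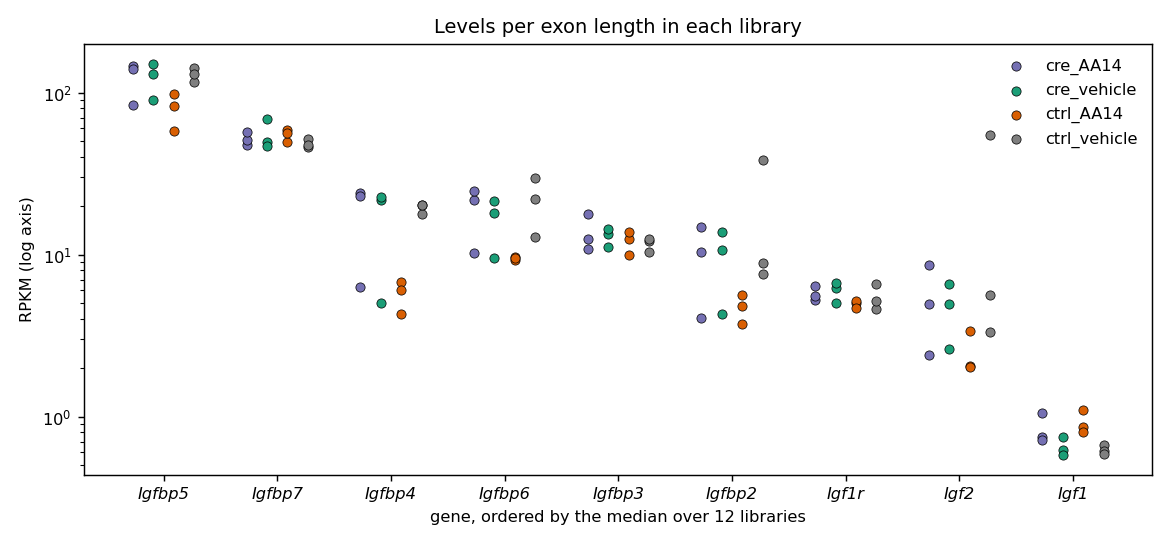
RPKM of the 9 genes on a log axis, with 1 point per library, coloured by group, and the genes ordered by their median over 12 libraries. Lengths take in all exon sequence, shared sequence included. Igfbp5 lies between 57.7 and 151 RPKM and Igf1 between 0.577 and 1.09 RPKM, and single libraries of Igf2 (54.7 RPKM) and Igfbp2 (38.1 RPKM) in ctrl_vehicle lie far above the rest.

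The 2 ligands differed from each other in pattern. Igf1 (ENSMUSG00000020053, GRCm38 chr10:87858265-87937042, plus strand) encodes the ligand that mediates much of the action of growth hormone. It had 7.40, 7.14 and 10.4 CPM in cre_AA14 libraries, against 6.13, 5.71 and 7.38 CPM in cre_vehicle libraries. In ctrl_AA14 libraries it had 8.57, 8.00 and 10.8 CPM, against 6.64, 6.07 and 5.83 CPM in ctrl_vehicle libraries. Every ctrl_AA14 library was above every ctrl_vehicle library, while in cre mice the ranges met. Of all genes, 17.6% were higher in ctrl_AA14 in this way, and the control-virus groups also differed in the Malat1 level. The means were 9.12 ± 1.48 CPM in ctrl_AA14 and 6.18 ± 0.415 CPM in ctrl_vehicle (SD, n = 3 each). The log2 fold change for AA14 in control-virus mice was 0.56 (SE 0.218, 95% interval 0.08 to 1.04), with an unadjusted p of 0.0254 and an adjusted p of 0.166 by edgeR's quasi-likelihood test with Benjamini-Hochberg adjustment over all 22630 genes, and an adjusted p of 0.0533 by DESeq2. In cre mice it was 0.37 (95% interval -0.11 to 0.85, edgeR adjusted p of 1.00). The AA14 effect in cre mice minus that in control-virus mice was -0.19 (95% interval -0.86 to 0.49, edgeR adjusted p of 0.849), so a difference between the genotypes was not detectable, and one of moderate size in either direction is within the interval.

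Igf2 (ENSMUSG00000048583, chr7:142650766-142666816, minus strand) encodes a fetal growth factor that is expressed from the paternal allele. It had 28.4, 13.7 and 49.1 CPM in cre_AA14 libraries, against 15.0, 37.8 and 28.3 CPM in cre_vehicle libraries. The ctrl_AA14 libraries had 19.3, 11.8 and 11.6 CPM, against 32.2, 19.1 and 313 CPM in ctrl_vehicle libraries. A single library, ctrl_vehicle 3, thus held over 6 times as much Igf2 as any other, and the 2 control-virus groups still overlapped at their edge. The same library held 293 CPM of Avp and 105 CPM of Oxt, which encode the neurohypophysial hormones vasopressin and oxytocin, against at most 24.6 CPM and 32.1 CPM in the other 11. Its summed fibroblast markers (986 CPM) and astrocyte markers (764 CPM) were the highest of the 12. The library with the most oligodendrocyte marker RNA, cre_vehicle 2, held 12.1 CPM of Avp and 37.8 CPM of Igf2. The part of these other tissues in the Igf2 level was not tested. The log2 fold change of Igf2 for AA14 in control-virus mice was -3.09 (SE 0.922, 95% interval -5.12 to -1.07, edgeR unadjusted p of 0.00619 and adjusted p of 0.141). Without ctrl_vehicle 3 it was -0.85 (SE 0.506, edgeR adjusted p of 0.443).

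Igf1r (ENSMUSG00000005533, chr7:67952827-68233668, plus strand), the receptor of both ligands, was among the steadiest members. It had 88.2, 93.3 and 107 CPM in cre_AA14 libraries, against 84.8, 105 and 112 CPM in cre_vehicle libraries. In ctrl_AA14 libraries it had 84.0, 87.4 and 78.2 CPM, against 77.8, 111 and 87.1 CPM in ctrl_vehicle libraries. All 12 libraries lay within 77.8 to 112 CPM. The log2 fold change for AA14 was -0.07 in cre mice (95% interval -0.42 to 0.29, edgeR adjusted p of 1.00) and -0.14 in control-virus mice (95% interval -0.50 to 0.21, edgeR adjusted p of 0.618). Differences within these bounds were not detectable with 3 libraries a group.

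Among the binding proteins, Igfbp2, Igfbp4, Igfbp5 and Igfbp6 were each lower in all 3 ctrl_AA14 libraries than in any ctrl_vehicle library, while Igfbp3 and Igfbp7 were not. Of all genes, 20.1% were lower in this way, and the 2 groups also differed in the Malat1 level. The upstream sequences of these 6 genes are shown to set the first 4 beside the other 2. Each is a window of 150 bases from base 170 to base 21 before the RefSeq start of the gene (GRCm38.p6), 5′ to 3′ on the strand of the gene. Capitals mark matches, on either strand, to the TATA box motif TATAAA, the GC box motif GGGCGG and the promoter motif CCAAT.
Igfbp2, chr1:72824310-72824459, plus strand: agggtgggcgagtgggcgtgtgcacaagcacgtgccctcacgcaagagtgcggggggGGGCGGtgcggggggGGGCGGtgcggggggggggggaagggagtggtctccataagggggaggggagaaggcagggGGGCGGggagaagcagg
Igfbp4, chr11:99041074-99041223, plus strand: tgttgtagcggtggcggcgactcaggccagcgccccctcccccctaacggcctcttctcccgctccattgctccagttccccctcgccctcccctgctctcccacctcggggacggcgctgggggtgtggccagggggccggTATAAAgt
Igfbp5, chr1:72874886-72875035, minus strand: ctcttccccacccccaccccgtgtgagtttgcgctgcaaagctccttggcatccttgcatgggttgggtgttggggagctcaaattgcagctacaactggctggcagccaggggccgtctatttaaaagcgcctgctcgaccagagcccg
Igfbp6, chr15:102144016-102144165, plus strand: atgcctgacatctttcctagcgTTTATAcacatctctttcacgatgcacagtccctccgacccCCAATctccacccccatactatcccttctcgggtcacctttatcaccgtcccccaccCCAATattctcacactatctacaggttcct
Igfbp3, chr11:7213944-7214093, minus strand: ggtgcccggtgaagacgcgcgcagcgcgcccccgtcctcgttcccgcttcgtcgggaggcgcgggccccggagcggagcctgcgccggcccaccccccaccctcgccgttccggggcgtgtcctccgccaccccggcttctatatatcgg
Igfbp7, chr5:77408066-77408215, minus strand: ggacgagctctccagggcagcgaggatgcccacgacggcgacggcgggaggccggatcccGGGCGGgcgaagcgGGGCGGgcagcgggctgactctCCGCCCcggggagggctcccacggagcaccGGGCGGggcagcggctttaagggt
No motif was common to the windows of Igfbp2, Igfbp4, Igfbp5 and Igfbp6. Igfbp2 held 3 GGGCGG matches, Igfbp4 held 1 TATAAA close to its start, Igfbp6 held 1 TATAAA on the opposite strand and 2 CCAAT, and Igfbp5 held none of the 3. Igfbp3 also held none, and Igfbp7 held 4 GGGCGG matches. No window of the 6 held TGACG, the core of the cyclic AMP response element. Over 32851 windows of the same length and position in RefSeq, 7.75% held TATAAA, 26.4% GGGCGG, 24.6% CCAAT and 12.4% TGACG. Base composition differed as well. G and C made up 74.7% of the Igfbp2 window, 70% of that of Igfbp4, 60% for Igfbp5 and 50.7% for Igfbp6. The windows of Igfbp3 (76.7%) and Igfbp7 (77.3%) were above all of these. These matches and percentages are a description of the letters in these windows only.

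Igfbp4 (ENSMUSG00000017493, chr11:99041244-99054392, plus strand) encodes a binding protein that mostly holds IGFs back from the receptor until PAPP-A cleaves it. It had 105, 27.9 and 101 CPM in cre_AA14 libraries, against 22.0, 96.4 and 100.5 CPM in cre_vehicle libraries. The ctrl_AA14 libraries had 29.8, 18.9 and 26.8 CPM, against 89.0, 79.0 and 89.1 CPM in ctrl_vehicle libraries. The libraries thus formed a low set of 5, from 18.9 to 29.8 CPM, and a high set of 7, from 79.0 to 105 CPM, with nothing between. All ctrl_AA14 libraries were in the low set and all ctrl_vehicle libraries in the high set, and each cre group had 1 low and 2 high libraries. The log2 fold change for AA14 was 0.10 in cre mice (95% interval -1.07 to 1.27, edgeR adjusted p of 1.00). In control-virus mice it was -1.77 (SE 0.551, 95% interval -2.98 to -0.56), with an unadjusted p of 0.00809 and an adjusted p of 0.141 by edgeR.

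Igfbp5 (ENSMUSG00000026185, chr1:72857932-72874884, minus strand) encodes a binding protein that also attaches to extracellular matrix. It lies 5457 bases from Igfbp2 on the opposite strand. It had 873, 504 and 834 CPM in cre_AA14 libraries, against 541, 787 and 908 CPM in cre_vehicle libraries. In ctrl_AA14 libraries it had 495, 592 and 346 CPM, against 850.0, 704 and 779.8 CPM in ctrl_vehicle libraries. The same libraries were low as for Igfbp4, with a smaller gap, 346 to 592 CPM against 704 to 908 CPM. For AA14 in control-virus mice the log2 fold change was -0.70 (SE 0.260, 95% interval -1.27 to -0.13, edgeR unadjusted p of 0.0200 and adjusted p of 0.155). In cre mice it was -0.02 (95% interval -0.58 to 0.55, edgeR adjusted p of 1.00).

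Igfbp6 (ENSMUSG00000023046, chr15:102144362-102149511, plus strand) encodes the binding protein that prefers IGF2 to IGF1. It had 24.1, 11.3 and 27.4 CPM in cre_AA14 libraries, against 10.6, 20.1 and 23.9 CPM in cre_vehicle libraries. The ctrl_AA14 libraries had 10.7, 10.3 and 10.6 CPM, against 24.5, 14.4 and 33.1 CPM in ctrl_vehicle libraries. The ctrl_AA14 libraries were close to one another (mean 10.5 ± 0.222 CPM), against a wide ctrl_vehicle group (24.0 ± 9.37 CPM, SD, n = 3 each). The log2 fold change for AA14 in control-virus mice was -1.19 (SE 0.390, 95% interval -2.04 to -0.33, edgeR unadjusted p of 0.0109 and adjusted p of 0.141).

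Igfbp2 (ENSMUSG00000039323, chr1:72824503-72852474, plus strand) encodes a binding protein that is abundant in brain and cerebrospinal fluid. It had 27.4, 7.45 and 19.3 CPM in cre_AA14 libraries, against 7.89, 25.3 and 19.6 CPM in cre_vehicle libraries. In ctrl_AA14 libraries it had 10.4, 8.83 and 6.93 CPM, against 16.4, 14.1 and 70.4 CPM in ctrl_vehicle libraries. The highest value was again that of ctrl_vehicle 3, the library with the high Igf2 level. For AA14 in control-virus mice the log2 fold change was -1.94 (SE 0.665, 95% interval -3.40 to -0.49, edgeR unadjusted p of 0.0134 and adjusted p of 0.142), and -0.80 without ctrl_vehicle 3.

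Igfbp3 and Igfbp7 did not follow the other binding proteins. Igfbp3 (ENSMUSG00000020427, chr11:7206086-7213923, minus strand) encodes the main carrier of IGFs in blood. It had 55.9, 38.8 and 33.8 CPM in cre_AA14 libraries, against 41.9, 34.8 and 44.9 CPM in cre_vehicle libraries. The ctrl_AA14 libraries had 39.1, 42.9 and 31.3 CPM, against 32.7, 38.3 and 38.7 CPM in ctrl_vehicle libraries. The groups overlapped in both pairs. Igfbp7 (ENSMUSG00000036256, chr5:77349240-77408041, minus strand), whose product is a vessel-associated protein with weak IGF binding, had 57.4, 61.7 and 69.3 CPM in cre_AA14 libraries, against 59.4, 56.5 and 82.4 CPM in cre_vehicle libraries. In ctrl_AA14 libraries it had 59.7, 70.6 and 68.3 CPM, against 62.3, 56.0 and 57.2 CPM in ctrl_vehicle libraries. Its 12 values spanned 56.0 to 82.4 CPM and overlapped in both pairs. Of its exon, 85 bases (7.03%) are shared with Polr2b on the opposite strand, which without strand information cannot be told apart. The log2 fold change for AA14 in control-virus mice was 0.05 for Igfbp3 (95% interval -0.39 to 0.49, edgeR adjusted p of 0.909) and 0.18 for Igfbp7 (95% interval -0.17 to 0.53, edgeR adjusted p of 0.519).

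**Figure D2:**
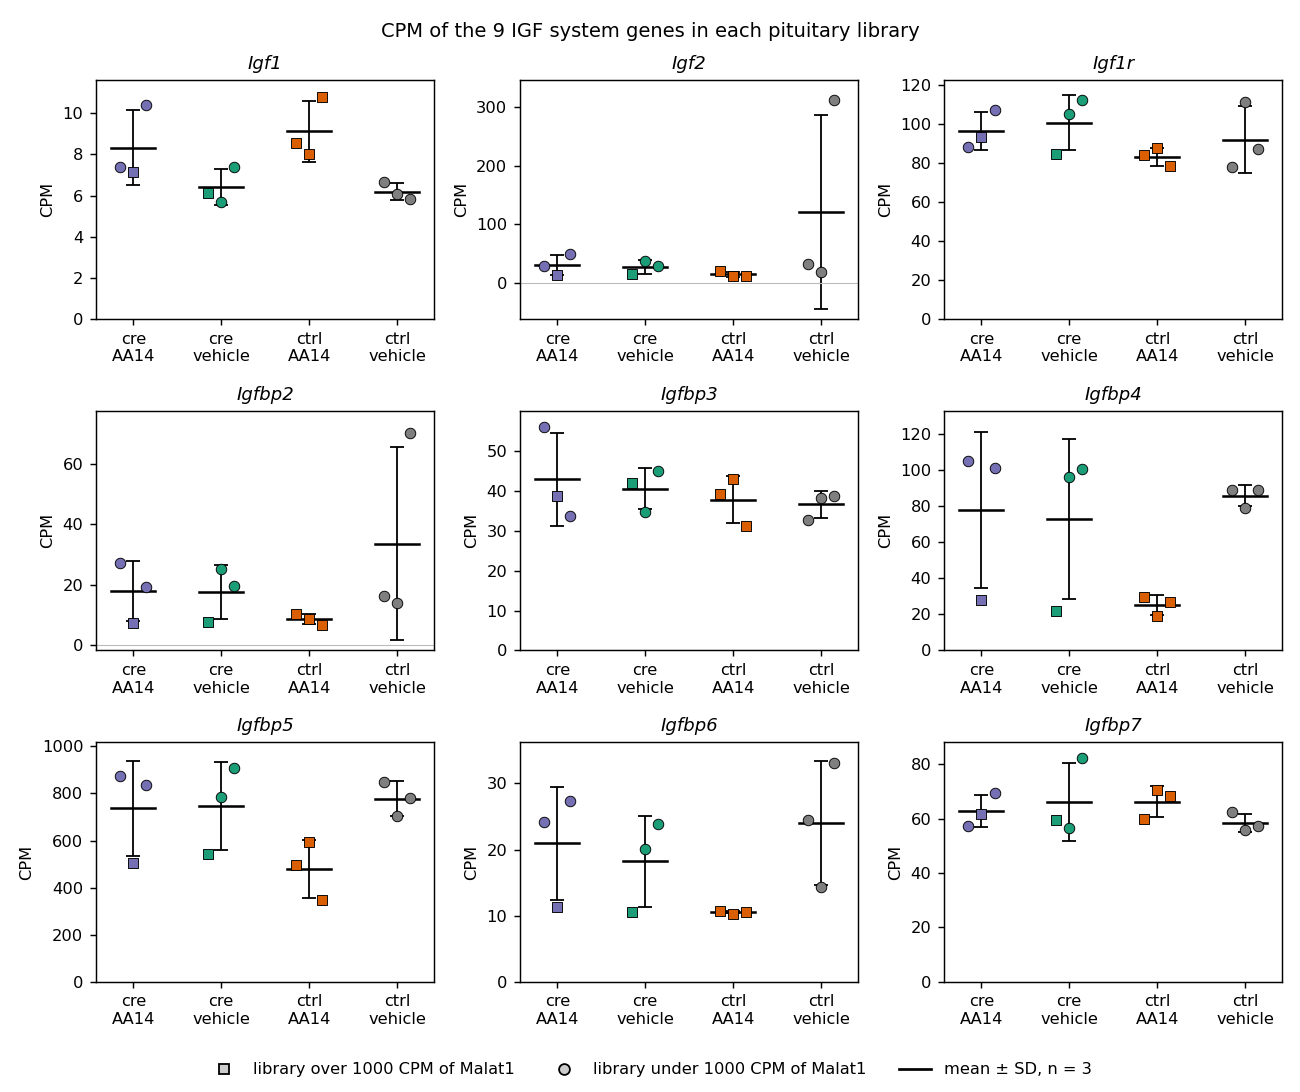
CPM of each gene in the 4 groups, with 1 point per library and the mean ± SD of 3 libraries as black lines, where squares are libraries with more than 1000 CPM of Malat1 and circles are the others. For Igfbp4 the squares lie at 18.9 to 29.8 CPM and the circles at 79.0 to 105 CPM, whatever the group, and for Igf2 the ctrl_vehicle mean and SD rest on 1 library at 313 CPM.

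The comparison of AA14 with vehicle in control-virus mice asks what the ligand changed where Gpr101 was left in place. No member passed an adjusted p of 0.05 by edgeR, where 0.00442% of all genes did (1 gene). At an unadjusted p under 0.05 edgeR marked 6 of the 9, namely Igf2, Igfbp2, Igfbp4, Igfbp5 and Igfbp6 lower and Igf1 higher in ctrl_AA14, where 15.8% of all genes were marked lower and 8.03% higher, together 23.8%. Ranges of CPM did not overlap for 4 members that were lower in ctrl_AA14 (Igfbp2, Igfbp4, Igfbp5 and Igfbp6), where 20.1% of all genes were, and for 1 that was higher (Igf1), where 17.6% were. The median log2 fold change was -0.70 over the 9 members and -0.02 over all genes. The result depended on the tool and on the libraries in the fit. With only ctrl_AA14 and ctrl_vehicle in the fit, edgeR called 1 member, Igfbp4, where it called 10.6% of the genes it tested (2266 genes). Igfbp4 then had a log2 fold change of -1.76 (SE 0.186, edgeR adjusted p of 0.0167), against an SE of 0.551 with all 12 libraries. DESeq2 called 4 members, all lower in ctrl_AA14, where it called 12.7% of the genes it tested: Igfbp4 (adjusted p of 0.0234), Igf2 (0.0242), Igfbp2 (0.0284) and Igfbp6 (0.0382). Igfbp5 had a DESeq2 adjusted p of 0.0824. Without ctrl_vehicle 3, which leaves 2 ctrl_vehicle libraries, DESeq2 called 0 members and 85 genes. Without it the DESeq2 log2 fold change was -1.71 for Igfbp4 (adjusted p of 0.162), against -1.75 with it, and -0.85 for Igfbp6 (adjusted p of 0.300), against -1.17 with it. These are bulk libraries, in which fewer cells of a type and less RNA per cell cannot be told apart.

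The comparison of AA14 with vehicle in cre mice asks the same where Gpr101 was targeted. All 9 members overlapped between cre_AA14 and cre_vehicle, where 5.86% of all genes did not. No member had an unadjusted p under 0.05 by edgeR, where 2.29% of all genes did, and none was called by edgeR, which called 0.00% of all genes, or by DESeq2, which called 0.0405% of those it tested (14 genes). The member with the smallest unadjusted p was Igf1 (0.114 by edgeR), at a log2 fold change of 0.37. The interval was wide for the members with low and high libraries in each cre group. It ran from -1.70 to 2.04 for Igf2 and from -1.37 to 1.44 for Igfbp2 on the log2 scale.

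The comparison of cre_AA14 with ctrl_AA14 asks what the cre virus changed under the ligand. No member passed an adjusted p of 0.05 by edgeR, which called 0.00% of all genes, or by DESeq2, which called 0.131% of those it tested (34 genes). At an unadjusted p under 0.05 edgeR marked 3 members, all higher in cre_AA14, where 7.08% of all genes were marked higher. They were Igfbp4 (log2 fold change 1.64, SE 0.549, unadjusted p of 0.0122), Igfbp6 (0.99, SE 0.389, 0.0269) and Igfbp5 (0.63, SE 0.260, 0.0342), each with an adjusted p of 0.582. With the log2 level of Malat1 as a term the edgeR values were 0.12 for Igfbp4, -0.03 for Igfbp6 and 0.10 for Igfbp5. All ctrl_AA14 libraries but only 1 cre_AA14 library were over 1000 CPM of Malat1. The term and the cre virus can thus be told apart only in part. Igf1r and Igfbp6 were higher in every cre_AA14 library than in any ctrl_AA14 library, where 7.30% of all genes were. For Igf1r the gap was small, 88.2 to 107 CPM in cre_AA14 against 78.2 to 87.4 CPM in ctrl_AA14. This comparison shares the ctrl_AA14 libraries with that of AA14 in control-virus mice.

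The comparison of cre_vehicle with ctrl_vehicle asks what the cre virus changed without the ligand. All 9 members overlapped between these groups, where 4.92% of all genes did not. Only Igf2 had an unadjusted p under 0.05 by edgeR (log2 fold change -2.17, SE 0.888, unadjusted p of 0.0323, adjusted p of 1.00), where 2.00% of all genes did. Without ctrl_vehicle 3 its log2 fold change was 0.08, and with the Malat1 term it was -0.76. All ctrl_vehicle libraries were under 1000 CPM of Malat1, so here too that term and the cre virus can be told apart only in part. Neither edgeR (1 gene in all, 0.00442%) nor DESeq2 (19 genes, 0.0748% of those it tested) called a member.

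The interaction, the AA14 effect in cre mice minus the AA14 effect in control-virus mice, asks whether the ligand acted differently where Gpr101 was targeted. No member passed by edgeR (1 gene in all, 0.00442%) or DESeq2 (27 genes, 0.0958% of those it tested). Igf2 (3.26, SE 1.24, unadjusted p of 0.0226 by edgeR), Igfbp6 (1.39, SE 0.546, 0.0272) and Igfbp4 (1.87, SE 0.764, 0.0320) had an unadjusted p under 0.05, where 7.03% of all genes did, and their adjusted p was 0.631. The interval for Igf2 ran from 0.55 to 5.97, and its value without ctrl_vehicle 3 was 1.02. With the log2 level of Malat1 as a term in the edgeR model, the interaction was 0.14 for Igf2, 0.03 for Igfbp4 and -0.11 for Igfbp6. In control-virus mice that term and AA14 cannot be told apart, so these values cannot say what part of the interaction goes with AA14. For Igf1r the interaction was 0.08 (95% interval -0.42 to 0.58) and for Igfbp7 it was -0.25 (95% interval -0.75 to 0.24). With no adjusted p under 0.05, the difference between an AA14 effect in control-virus mice and none in cre mice was not shown for any member.

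**Figure D3:**
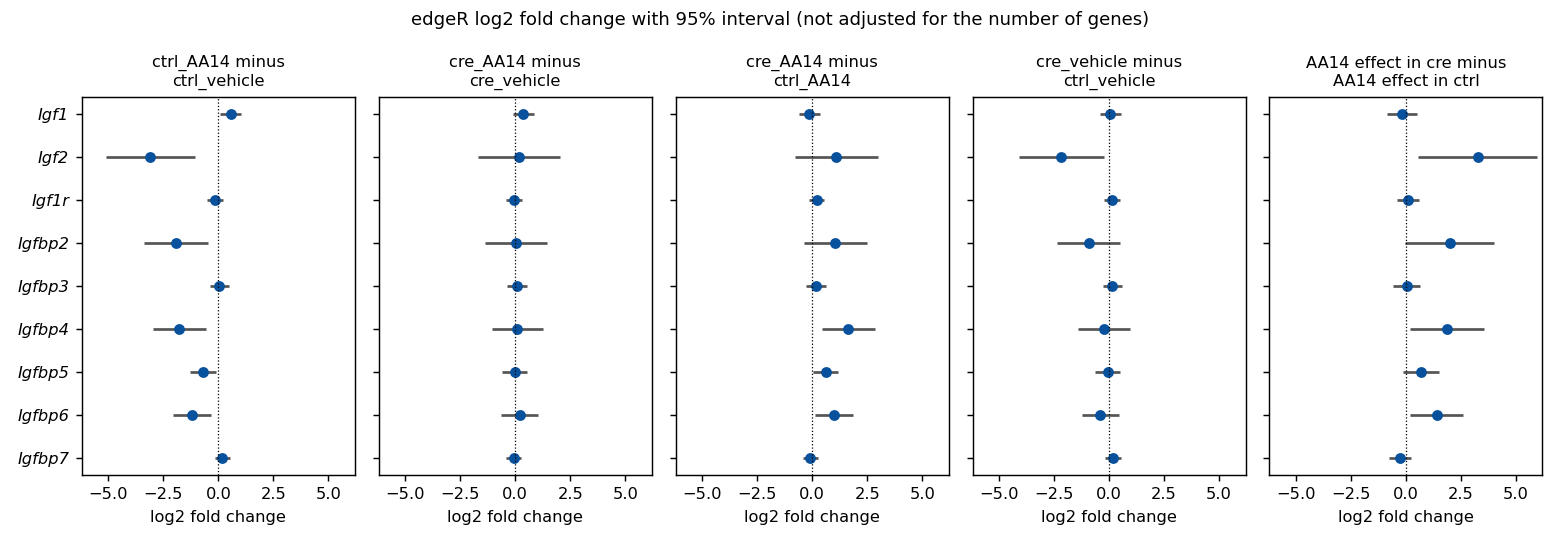
Log2 fold change of each gene (points) with its 95% interval, not adjusted for the number of genes (lines), in the 5 comparisons named above the panels, with the dotted line at 0. Igf2, Igfbp2, Igfbp4, Igfbp5 and Igfbp6 lie below 0 in ctrl_AA14 minus ctrl_vehicle (-3.09 to -0.70) and close to 0 in cre_AA14 minus cre_vehicle (-0.02 to 0.20).

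Across all 12 libraries the low values of 4 binding proteins went with the Malat1 level. In the 5 libraries over 1000 CPM of Malat1, Igfbp4 had 18.9 to 29.8 CPM, against 79.0 to 105 CPM in the other 7. Igfbp6 had 10.3 to 11.3 CPM, against 14.4 to 33.1 CPM in the other 7. Igfbp2 had 6.93 to 10.4 CPM, against 14.1 to 70.4 CPM in the other 7. With Igfbp5, 4 of the 9 members were below the other libraries without overlap, where 13.1% of all genes were, and 0 members were above, where 9.23% of all genes were. Igf2 came close, at 11.6 to 19.3 CPM against 19.1 to 313 CPM, and Igf1, Igf1r, Igfbp3 and Igfbp7 overlapped broadly. Within libraries of like Malat1 level, the cre groups could be set side by side. Among those under 1000 CPM of Malat1, Igfbp4 had 105 and 101 CPM in cre_AA14 and 96.4 and 100.5 CPM in cre_vehicle. In the single library of each group over 1000 CPM, it had 27.9 CPM in cre_AA14 and 22.0 CPM in cre_vehicle. With the log2 level of Malat1 as a term in the edgeR model, the log2 fold change for AA14 in control-virus mice became 0.08 for Igfbp4, 0.01 for Igfbp5, 0.25 for Igfbp6 and 0.50 for Igfbp2, and that of Igf2 became -0.18 (-0.19 in DESeq2 with the same term). In control-virus mice that term and AA14 cannot be told apart.

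Sums of cell type markers differed between the same 2 sets of libraries. The 6 mural cell markers summed to 239 to 268 CPM in the 5 libraries over 1000 CPM of Malat1, against 113 to 227 CPM in the other 7. The 4 gonadotroph markers summed to 2266 to 2575 CPM, against 1238 to 1980.5 CPM, and the 2 thyrotroph markers to 404 to 555 CPM, against 156 to 370.0 CPM. The 7 fibroblast markers overlapped (485 to 555 CPM against 531 to 986 CPM), as did the 8 endothelial markers (146 to 188 CPM against 169.8 to 227 CPM), and so did the 9 other lists. No marker was at 0 in all libraries. Single genes of other cells, named after their values were seen, did separate these libraries. Avp had 1.62 to 2.56 CPM in the 5 libraries over 1000 CPM of Malat1, against 12.1 to 293 CPM in the other 7, and Oxt had 4.62 to 8.18 CPM, against 14.6 to 105 CPM. Col1a1, a collagen gene of the fibroblast list, had 8.30 to 10.5 CPM, against 16.6 to 44.9 CPM. Avp, Oxt and Col1a1 were thus low in the same libraries as Igfbp2, Igfbp4, Igfbp5 and Igfbp6, where 13.1% of all genes were low without overlap. The 5 pituicyte markers, of cells of the posterior lobe, overlapped (58.1 to 95.1 CPM against 83.0 to 119 CPM), as the fibroblast sum did. The part of the posterior lobe, of these cell types and of the Malat1 level in the values of Igfbp2, Igfbp4, Igfbp5 and Igfbp6 was not tested.

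**Figure D4:**
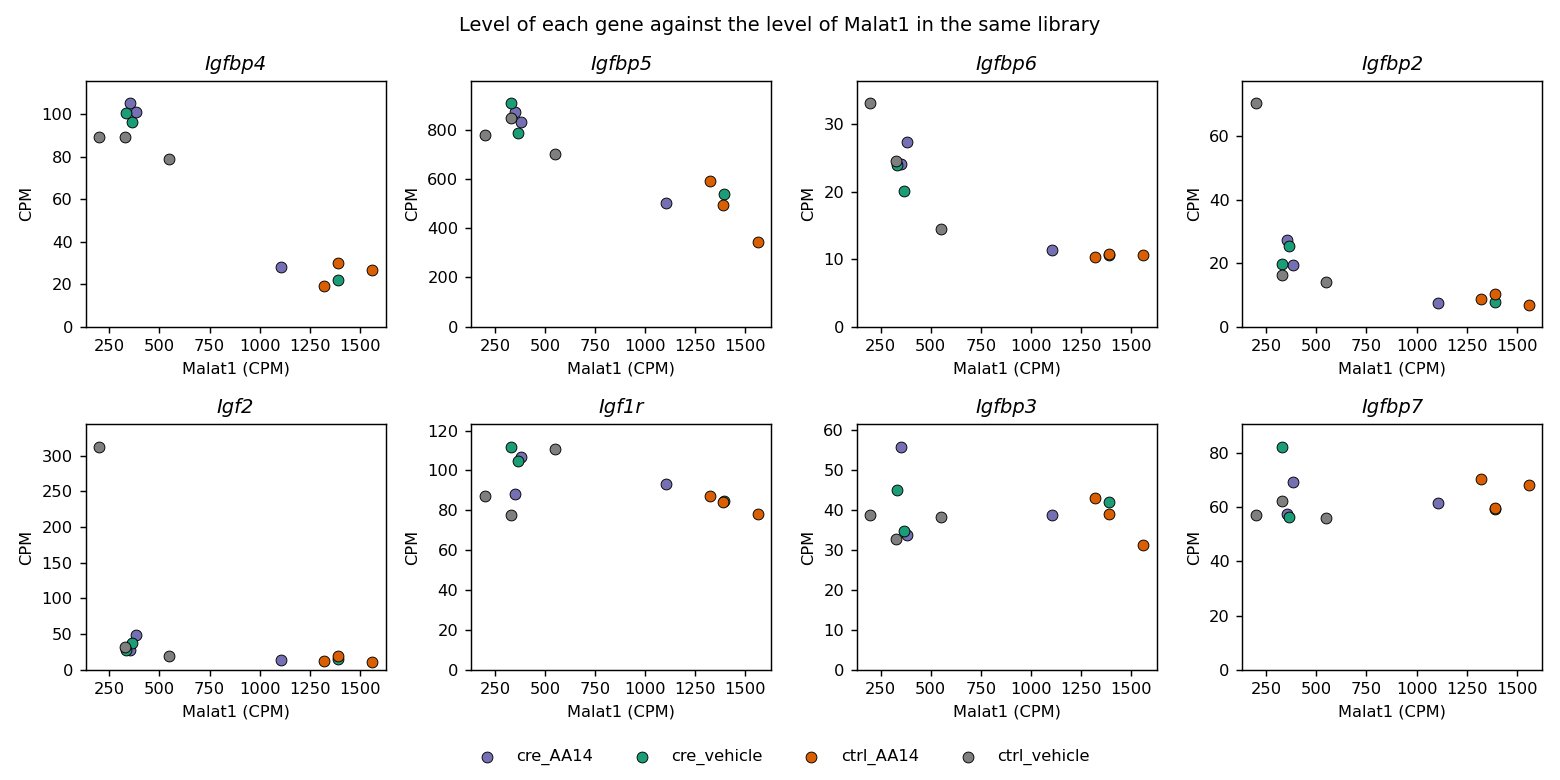
CPM of 8 of the genes (vertical axes) against CPM of Malat1 in the same library (horizontal axes), with 1 point per library, coloured by group. Igfbp4, Igfbp5, Igfbp6 and Igfbp2 are lower in all 5 libraries at 1105 to 1560 CPM of Malat1 than in the 7 at 199 to 549 CPM, while Igf1r, Igfbp3 and Igfbp7 overlap.

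Among Igfbp2, Igfbp3, Igfbp4, Igfbp5 and Igfbp6, Igfbp5 held the largest share of RNA in every library. Igfbp7, with weak IGF binding, was not counted in this share. In ctrl_AA14 3 it stood at 56.5 RPKM, close to Igfbp5 at 57.7 RPKM, so the share of Igfbp5 depends on this choice. Summed over Igfbp2, Igfbp3, Igfbp4, Igfbp5 and Igfbp6, the level was 117 to 224 RPKM in cre_AA14 and 122 to 220.4 RPKM in cre_vehicle. It was 87.1 to 131 RPKM in ctrl_AA14 and 168 to 230.2 RPKM in ctrl_vehicle, without overlap between the control-virus groups. Igfbp5 was 65.0% to 71.8% of this sum in cre_AA14 and 66.9% to 73.7% in cre_vehicle, and 66.3% to 75.5% in ctrl_AA14 and 56.4% to 69.8% in ctrl_vehicle. Igfbp4 was 3.28% to 6.97% in ctrl_AA14 and 8.77% to 10.7% in ctrl_vehicle. Igfbp3 was 10.5% to 11.5% in ctrl_AA14 and 5.14% to 7.29% in ctrl_vehicle, a higher share of a smaller sum at a level that overlapped between the groups. The cre libraries over 1000 CPM of Malat1, cre_AA14 2 and cre_vehicle 1, held 5.41% and 4.08% Igfbp4, 10.6% and 10.9% Igfbp3, and sums of 117 and 122 RPKM. The other cre libraries held 10.3% to 11.2% Igfbp4 and 5.21% to 7.99% Igfbp3. In control-virus mice AA14 and the Malat1 level cannot be told apart.

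Of 26 other genes of the pathway, 24 passed the filter on low counts, and edgeR called none of them in any of the 5 comparisons. In control-virus mice, edgeR gave 6 of the 24 an unadjusted p under 0.05, a share close to the 23.8% of all genes that had one. Higher in ctrl_AA14 were Ghrhr, through which hypothalamic GHRH drives somatotrophs (log2 fold change 1.20), and Gh itself (0.75). Lower were Grb14, an adaptor that inhibits insulin receptor signalling (-1.08), Pik3r1, the regulatory subunit of phosphoinositide 3-kinase (-0.60), Shc1, an adaptor that links the receptor to Ras (-0.51), and Irs4, a receptor substrate (-0.42). These genes too went with the Malat1 level, except Gh and Irs4, which overlapped. Ghrhr had 242 to 316 CPM in the 5 libraries over 1000 CPM of Malat1, cre_vehicle 1 included, against 84.0 to 159.8 CPM in the other 7. Pik3r1 had 71.1 to 92.1 CPM, against 101 to 129.5 CPM, and Grb14 and Shc1 were also lower without overlap. Of all genes, 13.1% were lower and 9.23% higher in this way. DESeq2 called 2 of the 24, Pik3r1 (adjusted p of 0.0352) and Ghrhr (0.0387), where it called 12.7% of the genes it tested, and without ctrl_vehicle 3 it called 85 genes in all. The median log2 fold change of the 24 was -0.13, between that of the 9 members (-0.70) and that of all genes (-0.02). Insr (0.24) and Igf2r (-0.12), the receptors for insulin and for clearance of IGF2, had edgeR adjusted p-values of 0.694 and 0.707. In cre mice the medians for AA14 were 0.08 for the members and 0.00 for the 24. In cre_AA14 against ctrl_AA14 they were 0.63 for the members and 0.01 for the 24. In this comparison edgeR gave 3 of the 24 an unadjusted p under 0.05, all higher in cre_AA14, where 7.08% of all genes were marked higher. They were Irs2 (1.41), Shc1 (0.46) and Pik3r1 (0.38). Irs2, a receptor substrate, had 32.1 to 47.3 CPM in the libraries over 1000 CPM of Malat1, against 67.2 to 199.8 CPM in the others.

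The genes whose levels followed each member most closely over the 12 libraries were sought among 14100 genes, by Pearson's r of log2(CPM + 0.5). For Igfbp4 they were Drap1 (r = 0.99), Cpne5 (0.98) and Cdkn1c (0.98). For Igfbp5 they were Usp30 (0.98), Nelfe (0.98) and Gpc4 (0.97), and for Igfbp6 they were Ppp1r3b, Cavin1 and Islr (0.98 each). Igf2 was followed by Reep5 (0.98), Piezo2 (0.98) and Nbl1 (0.97), and Igfbp2 by Hspb8 (0.99), Ndn (0.99) and Foxj1 (0.98). The members without the low and high sets had lower values of r, at most 0.90 for Igf1r with Zfhx3, 0.89 for Igfbp3 with Isy1, 0.86 for Igf1 with Prpf18 and 0.83 for Igfbp7 with Tmem140. By Spearman's rho, a correlation of ranks, the contrast was not clear. For the closest genes of these members rho ran from 0.62 (Igfbp7 with Mtrr) to 0.96 (Igf1 with Cnpy4). For those of the other members it ran from 0.85 (Igfbp6 with Islr) to 0.98 (Igfbp2 with Hspb8). These are descriptions over 12 libraries that share their groups, the Malat1 level and, for Igf2 and Igfbp2, the extreme library ctrl_vehicle 3.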

How the data were processed

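RNA of pituitary cells was sequenced in 12 libraries, 3 in each of 4 groups set by the titles and genotype labels. The libraries were made with a NEBNext Ultra kit and sequenced as read pairs on a NovaSeq, and reads were mapped with HISAT2, per the labels' protocols. Build GRCm38, featureCounts 1.5.0-p3 and DESeq 1.8.3 are named in the submitters' processing notes. The values deposited by the authors are raw gene counts, 1 file per library with 55421 identifiers, of which 55154 matched a symbol. The sources used here do not give the counting settings for strand and shared exons, and exon lengths came from GENCODE M21 of the same build.

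All 12 libraries entered 1 edgeR 4.0.16 quasi-likelihood model in R 4.3.3 (filterByExpr, TMM, 1 mean per group), with p-values adjusted by Benjamini-Hochberg over 22630 genes and called at 0.05. Intervals are at 95% and not adjusted. RPKM is CPM per kilobase of merged exon. DESeq2 1.42.0 was an alternative, beside other scalings, no filter, only the groups compared, the replicate number as a block, leaving out libraries, and the log2 Malat1 level as a term. The edgeR step was tested on simulated counts with changes planted in ctrl_AA14. Noise there was independent between libraries, so that test does not cover a state such as the Malat1 level or an extreme library. No 2 libraries of a group agreed within sampling noise. The members, pathway genes and marker lists were chosen with earlier results of these data known. Named are the 9 members, up to 12 of the other pathway genes, and for each member its closest genes by Pearson's r among those with a mean of at least 1 CPM. Malat1, Avp, Oxt, Col1a1 and Gpr101 were named after their values were seen.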

Additional observations from a re-analysis of the deposited data

How the results depend on the processing

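The number of members called by edgeR in each of the 5 comparisons was 0, and stayed 0 with other scalings, no low-count filter, the replicate block, the Malat1 term and each library left out in turn (0 to 0 for each comparison). The exceptions were AA14 in control-virus mice by DESeq2 (4 members, where DESeq2 called 2162 genes and edgeR 1) and with only the groups compared in the fit (1 member, Igfbp4, log2 fold change -1.76, adjusted p of 0.0167, where 2266 genes were called). In the edgeR settings that stayed at 0 members, at most 5 genes in all were called (0.0211%). A count of 0 members there says little about stability. Chosen after seeing the data, DESeq2 without ctrl_vehicle 3 called 0 members and 85 genes, without the 3 libraries rich in oligodendrocyte markers 0 members and 42 genes, and with the Malat1 term 0 members and 63 genes. The titles' numbers did not pair the libraries: r of deviations between same-numbered libraries ran from -0.56 to 0.36, and 2 of 12 libraries correlated best with their own number. With the replicate number as a block, Igf2 was -2.31 for AA14 in control-virus mice, and for AA14 in cre mice the sign turned for Igf2 (-0.12) and Igfbp2 (-0.02).

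With the Malat1 term in edgeR the sign turned for AA14 in control-virus mice in Igfbp2 (0.50), Igfbp4 (0.08), Igfbp5 (0.01) and Igfbp6 (0.25), and likewise in DESeq2 with that term (0.52, 0.11, 0.04 and 0.28). It turned for AA14 in cre mice in Igf2 (-0.03) and Igfbp2 (-0.08), for cre under AA14 in Igf2 (-0.62), Igfbp2 (-0.59) and Igfbp6 (-0.03), and for cre under vehicle in Igfbp4 (0.09), Igfbp5 (0.16) and Igfbp6 (0.08). In the interaction it turned in Igf1r (-0.02), Igfbp2 (-0.58), Igfbp3 (-0.07), Igfbp5 (-0.06) and Igfbp6 (-0.11). Without the 3 libraries rich in oligodendrocyte markers it turned for AA14 in cre mice in Igfbp3 (-0.02) and Igfbp5 (0.02), and in the interaction in Igfbp3 (-0.12), which was 0.00 with scaling free of the 7 hormone genes. With the Malat1 term Igf2 kept its sign at -0.18 for AA14 in control-virus mice and -0.76 for cre under vehicle. Igfbp4 (0.12) and Igfbp5 (0.10) for cre under AA14, and Igf2 (0.14) and Igfbp4 (0.03) in the interaction, also kept theirs. The cause of these changes was not tested.

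Leaving out 1 library at a time turned the sign of the log2 fold changes below. The furthest turns were those without ctrl_vehicle 3 for cre under vehicle, in Igf2 (-2.17 with it, 0.08 without it) and Igfbp2 (-0.93 with it, 0.21 without it). For AA14 in control-virus mice the range was -0.25 to 0.01 for Igf1r and -0.07 to 0.17 for Igfbp3. For AA14 in cre mice it was -0.37 to 0.51 for Igf2, -0.18 to 0.02 for Igf1r, -0.41 to 0.40 for Igfbp2, -0.17 to 0.21 for Igfbp3, -0.34 to 0.49 for Igfbp4, -0.21 to 0.19 for Igfbp5, -0.08 to 0.49 for Igfbp6 and -0.18 to 0.12 for Igfbp7. For cre under AA14 it was -0.05 to 0.33 for Igfbp3. For cre under vehicle it was -0.06 to 0.13 for Igf1, -2.67 to 0.08 for Igf2, -1.30 to 0.21 for Igfbp2, -0.53 to 0.20 for Igfbp4, -0.23 to 0.12 for Igfbp5 and -0.01 to 0.28 for Igfbp7. For the interaction it was -0.08 to 0.18 for Igf1r and -0.20 to 0.18 for Igfbp3.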
